A study of Rattus norvegicus with 8 samples.

Results

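Adenylyl cyclases are the enzymes that make cyclic AMP (cAMP) from ATP, and 8 of their genes, Adcy2 to Adcy9, were followed in the dentate gyrus (DG) of rats that had undergone status epilepticus (SE) with or without estradiol (E2) replacement. The members were all non-control spots of the array that carried one of these gene names. This gave 10 spots, each a different probe, of 43379 spots, and 8 genes of 35250 names. All 8 rats were adult female Sprague-Dawley rats, ovariectomized (OVX) before the hormone or its vehicle was given and then injected with kainic acid, a glutamate receptor agonist that brings on prolonged seizures. The 4 COS rats received oil and the 4 CES rats received 4 daily doses of 2 µg of E2, 2 of them before and 2 after SE. According to the labels kainic acid was given at 16 mg/kg and SE was ended with pentobarbital after 5 h, whereas the study's methods give a lower dose, another drug and E2 only before SE, and the files do not settle which applies. The labels give no time of tissue collection, and the methods name different times in different paragraphs. Rats that had no SE are not analysed here. Every difference below is thus between E2-replaced and oil-injected rats after SE, and none compares rats with and without SE.

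The cAMP made by these enzymes activates protein kinase A (PKA), opens cyclic nucleotide-gated channels and acts on the Epac exchange factors, and it is removed by phosphodiesterases. All membrane adenylyl cyclases are stimulated by the G protein subunit Gαs, but the other inputs differ between isoforms. Calcium with calmodulin stimulates Adcy8 and, in the presence of Gαs, Adcy3. The G protein βγ dimer adds to the stimulation of Adcy2, Adcy4 and Adcy7, and calcium inhibits Adcy5 and Adcy6. Adcy9 is the isoform that responds little to forskolin. In the hippocampus cAMP and PKA are known for their part in the late phase of long-term potentiation and in plasticity of the mossy fibers, the axons of the DG granule cells.

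Each member was read by 60-base probes, with 1 probe for Adcy2, Adcy3, Adcy4, Adcy5, Adcy8 and Adcy9 and 2 probes each for Adcy6 and Adcy7. The sequences of the probes that carry the main difference (Adcy4) and of the pair that bear the same gene name (Adcy7) are shown 5′ to 3′ as the files list them. The Adcy4 probe lies on the minus strand at chr15:33931850-33931909 of rn4, and was designed on the Adcy4 transcript. The capitals mark its longest run in common with a probe of another member, 9 bases that are also in the Adcy3 probe.
Adcy4 probe: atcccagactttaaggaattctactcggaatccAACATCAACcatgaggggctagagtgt
Over all 43 pairs of probes of different members the longest run in common was 10 bases of the 60. The probes were compared with each other only, not with the transcripts of the other isoforms. Whether a probe reads only its own isoform was therefore not tested.
Of the Adcy7 probes, the full-transcript probe lies on the minus strand at chr19:20053958-20054017 of rn4. The partial-record probe was designed on a partial Adcy7 coding sequence, and the files give it no position on rn4. Capitals mark the last 14 bases of the first and the first 14 bases of the second, which matched at 12 positions and differed as T8C and A11C, counted from 1 at the first capital, with the base of the full-transcript probe written first.
Adcy7 full-transcript probe: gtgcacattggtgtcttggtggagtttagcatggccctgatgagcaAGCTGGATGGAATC
Adcy7 partial-record probe: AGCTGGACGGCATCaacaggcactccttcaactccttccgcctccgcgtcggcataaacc

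All 8 members had at least 1 probe with a signal of at least 2 times its local background in all 8 rats, as 21372 genes did in all, and 9 of the 10 probes passed. The exception was the second Adcy6 probe, which was valid in 6 rats and well above background in none, and of which the files place only 25 bases on rn4. Adcy1 and Adcy10 are on the array but were not among the members followed. The Adcy1 probe was well above background in no rat, and that of Adcy10 in 1 rat of each group.

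From 30690 to 38553 spots (70.7% to 88.9%) were valid per rat. A level is the log2 of the background-subtracted signal relative to the median valid spot of the same rat, so that 0 is the median valid spot. On this scale the median over all genes was 0.99 in COS and 0.62 in CES, a shift of -0.37, so each difference is also given on a gene-centered scale, on which the median gene of each rat is 0 (a choice made after seeing the data). Rat CES 2 stood apart from the other E2-replaced rats. Over all genes its levels correlated at 0.974 to 0.983 with the COS rats, against 0.933 to 0.944 for the other CES rats, and at 0.955 to 0.964 with the other CES rats. Whole-tissue RNA was measured, so fewer cells of a type and less RNA per cell cannot be told apart in any of the differences below.

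On the valid-spot scale Adcy4 was 4.23-fold lower in the E2-replaced rats by the measured levels. Its probe was well above background in 2 of the 4 CES rats. With dim CES signals raised to the dimmest signal called well above background, the fold was 3.59. It was 3.27 on the gene-centered scale, and over the processing alternatives the difference ran from -3.01 to -0.84 (log2). Adcy4 was the only member whose groups did not overlap on the valid-spot scale. Over all genes, 19.8% had groups that did not overlap with CES lower, and 1.61% with CES higher. limma called 1 of the 8 members lower in CES, where it called 28.3% of all genes lower, and 0 of the 8 higher, where it called 5.79% of all genes higher. At an unadjusted p under 0.05, reached by 9657 of the 21372 genes in either direction, Adcy9 was also higher. The methods' t-test called 0 members and 0% of all genes after Benjamini-Hochberg adjustment. Its unadjusted p was under 0.05 for Adcy4, which was lower, and for 6114 of the 21372 genes in either direction. On the gene-centered scale, 3 of the 8 members were called higher (Adcy2, Adcy3 and Adcy9), beside 15% of all genes, and Adcy4 stayed lower, beside 9.27%. The median difference over the 8 members was 0.19 (log2) on the valid-spot scale, beside -0.25 over all 21372 genes, and 0.56 beside 0.12 on the gene-centered scale. Which members were called higher therefore depended on the scaling, and the lower call of Adcy4 was made on both scales.

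**Figure D1:**
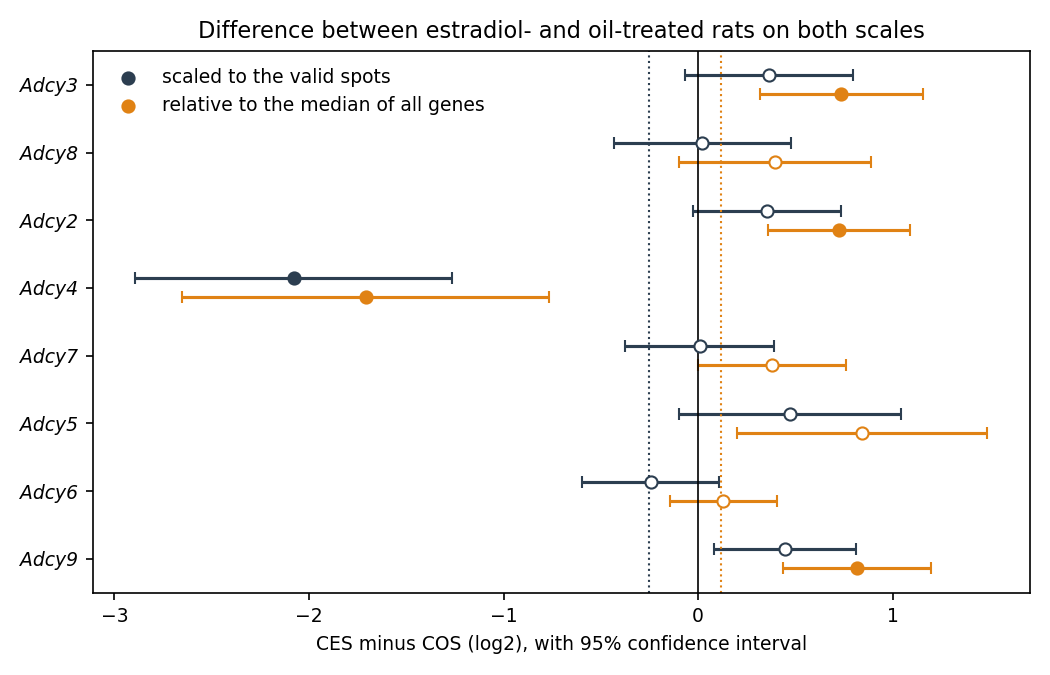
Difference in log2 level between E2-replaced (CES) and oil-injected (COS) rats for each adenylyl cyclase, with its 95% confidence interval, on the valid-spot scale (dark) and the gene-centered scale (orange). Filled points have an adjusted p under 0.05 in limma, and dotted lines mark the median of all genes on each scale, -0.25 and 0.12. Adcy4 stands at -2.08 and -1.71, and the other members lie between -0.24 and 0.84.

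Of the members stimulated through Gβγ, Adcy4 had levels of 0.98, 0.25, 0.39 and -0.45 in COS rats 1 to 4. The CES rats 1 to 4 were at -2.24, -1.0, -1.41 and -2.49. Every CES rat was below every COS rat, which held for 19.8% of all genes (1.61% had every CES rat above every COS rat), and CES 2 was the highest of its group. The COS mean was 0.29 ± 0.59 and the CES mean -1.79 ± 0.70 (SD, n = 4 each), which gave a difference of -2.08 (SE 0.36, 95% interval -2.89 to -1.27, adjusted p = 0.00495 in limma). The groups were separated within each dye, by -2.51 between the rats labeled with Cy3 and -1.65 between those labeled with Cy5. On the gene-centered scale the difference was -1.71 (SE 0.41, adjusted p = 0.0269), and again no CES rat reached a COS rat, as for 11.9% of all genes.

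By the scanner software's test the Adcy4 probe stood well above background in all 4 COS rats but in only 2 CES rats, CES 2 and CES 4. Its signal was 11.2 to 26.3 times the local background in the COS rats and 3.12 to 9.89 times in the CES rats. In CES 1 and CES 3 the level was below -1.30 and -1.29, the levels that 95% of the negative control spots of these channels did not exceed. With the CES rats set no lower than the dimmest signal called well above background in their channel, the group means differed by 3.59-fold, against 4.23-fold as measured. This shows the effect of that floor alone on the valid-spot scale, not that of the background correction, the scaling or the spread between rats. These low signals bear on the size of the Adcy4 difference more than on its direction, which was negative under all alternatives. Without CES 2 it was -2.46 (adjusted p = 8.54e-05), and without COS 3 it was -2.06 and no longer passed the threshold (adjusted p = 0.0524). It also missed the threshold after normexp background correction (-1.02, adjusted p = 0.107) and in the methods' t-test (adjusted p = 0.0773), and loess with Aquantile normalization reduced it to -0.84 (adjusted p = 0.0203).

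**Figure D2:**
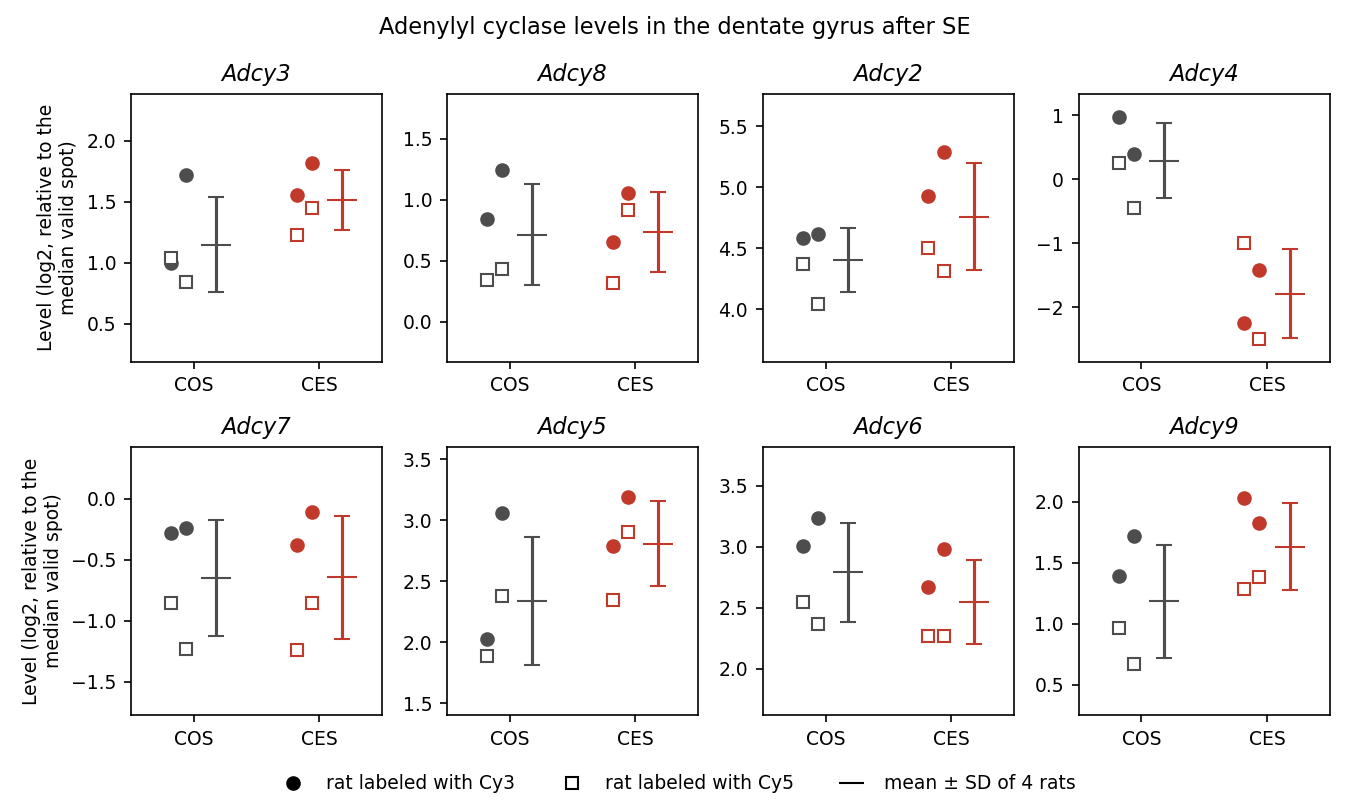
Level of each adenylyl cyclase in each rat, as log2 relative to the median valid spot of its channel, for COS (grey) and CES (red), with circles for Cy3 and squares for Cy5, and the mean ± SD of 4 rats beside them. Panels have their own axis ranges. Only in the Adcy4 panel do the groups separate, with COS between -0.45 and 0.98 and CES between -2.49 and -1.0. Over all genes 19.8% separated in that direction.

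Adcy2, the second isoform of this group, gave levels of 4.59, 4.37, 4.62 and 4.05 in COS rats 1 to 4 and of 4.93, 4.51, 5.29 and 4.31 in CES rats 1 to 4. The ranges overlapped, and within Cy3 both CES rats were above both COS rats. The difference of 0.35 (SE 0.17, 95% interval -0.03 to 0.74) did not pass the threshold (adjusted p = 0.136 in limma). On the gene-centered scale the COS rats lay within 3.32 to 3.49 and the CES rats within 3.95 to 4.40, without overlap, as for 17.3% of all genes in that direction. That difference was 0.73 (SE 0.16, adjusted p = 0.0226), a 1.65-fold higher level in CES. The scanner software had marked the Adcy2 spot as non-uniform in COS 3 and COS 4, which share an array, and without that array the difference on the valid-spot scale was 0.28 (adjusted p = 0.438).

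Adcy7, the third, had levels of -0.28, -0.86, -0.24 and -1.23 in COS and of -0.38, -1.24, -0.11 and -0.86 in CES. The groups covered the same range, and the rats labeled with Cy3 were the higher in both. The difference was 0.01 (SE 0.17, 95% interval -0.37 to 0.39, adjusted p = 0.978), and 0.38 (SE 0.17, adjusted p = 0.121) on the gene-centered scale. The partial-record probe shown above was well above background in all 8 rats, with means of 0.12 in COS and 0.11 in CES. Its difference was -0.01 (SE 0.18, adjusted p = 0.965). The full-transcript probe was well above background in no COS rat and in 1 CES rat, with levels from -3.32 to -1.75 in COS and from -3.45 to -1.35 in CES, so no fold is given for it. The Adcy7 level thus rests mostly on a probe without a position on rn4.

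Among the isoforms that calcium and calmodulin stimulate, Adcy3 is known from olfactory neurons and from neuronal primary cilia. Its levels were 1.00, 1.04, 1.72 and 0.84 in COS rats 1 to 4 and 1.56, 1.23, 1.82 and 1.45 in CES rats 1 to 4. Rat COS 3 alone lay within the range of the CES rats. The difference was 0.37 (SE 0.19, 95% interval -0.07 to 0.80, adjusted p = 0.169). The groups separated on the gene-centered scale, from -0.17 to 0.42 in COS and from 0.68 to 1.09 in CES, as for 17.3% of all genes in that direction. That difference was 0.74 (SE 0.18, adjusted p = 0.0287), or 1.67-fold.

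Adcy8, which like Adcy1 couples calcium entry to cAMP at synapses, had levels of 0.84, 0.34, 1.24 and 0.43 in COS and of 0.66, 0.32, 1.06 and 0.92 in CES. The CES rats lay within the range of the COS rats except for CES 2, just below it. The difference was 0.02 (SE 0.20, 95% interval -0.43 to 0.48, adjusted p = 0.943). It was -0.19 within Cy3 and 0.23 within Cy5. On the gene-centered scale it was 0.39 (95% interval -0.10 to 0.89, adjusted p = 0.196), an interval that holds 0 and also differences as large as those of Adcy2 and Adcy3.

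Of the calcium-inhibited isoforms, Adcy5 is the main adenylyl cyclase of the striatum. In the DG its levels were 2.03, 1.89, 3.06 and 2.38 in COS and 2.79, 2.35, 3.19 and 2.90 in CES. The COS rats of the second array (COS 3 and COS 4) were above those of the first, and the ranges of the groups overlapped. The difference was 0.47 (SE 0.26, 95% interval -0.10 to 1.04, adjusted p = 0.178), and 0.84 (SE 0.28, 95% interval 0.20 to 1.49, adjusted p = 0.0596) on the gene-centered scale. There the lowest CES rat (1.81) was just above the highest COS rat (1.77), and 17.3% of all genes separated in that direction. limma did not call Adcy5 on that scale. Only loess with Aquantile normalization brought Adcy5 past the threshold, with a difference of 0.75 (adjusted p = 0.0485).

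Adcy6, the isoform most similar to Adcy5 and likewise inhibited by Gαi, had levels of 3.01, 2.55, 3.24 and 2.37 in COS and of 2.67, 2.27, 2.98 and 2.27 in CES. Within each dye both CES rats were below both COS rats, but the ranges over both dyes overlapped. The difference was -0.24 (SE 0.16, 95% interval -0.60 to 0.11, adjusted p = 0.258), almost equal to the median over all genes. After gene-centering it changed sign, to 0.13 (95% interval -0.15 to 0.40, adjusted p = 0.434). Adcy6 was therefore the member closest to the bulk of the genes, with no call on either scale.

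Adcy9 had levels of 1.39, 0.97, 1.72 and 0.67 in COS rats 1 to 4 and of 2.03, 1.29, 1.83 and 1.38 in CES rats 1 to 4. The ranges overlapped across the dyes, but within each dye both CES rats were above both COS rats. The difference of 0.45 (SE 0.16, 95% interval 0.08 to 0.81) was just short of the threshold (adjusted p = 0.0592 in limma). On the gene-centered scale the COS rats lay within 0.06 to 0.42 and the CES rats within 0.74 to 1.36. The groups did not overlap there, as for 17.3% of all genes in that direction. The gene-centered difference was 0.82 (SE 0.16, adjusted p = 0.0204), or 1.76-fold, with CES above COS by 0.83 within Cy3 and 0.81 within Cy5. The files give the Adcy9 probe no position on rn4.

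**Figure D3:**
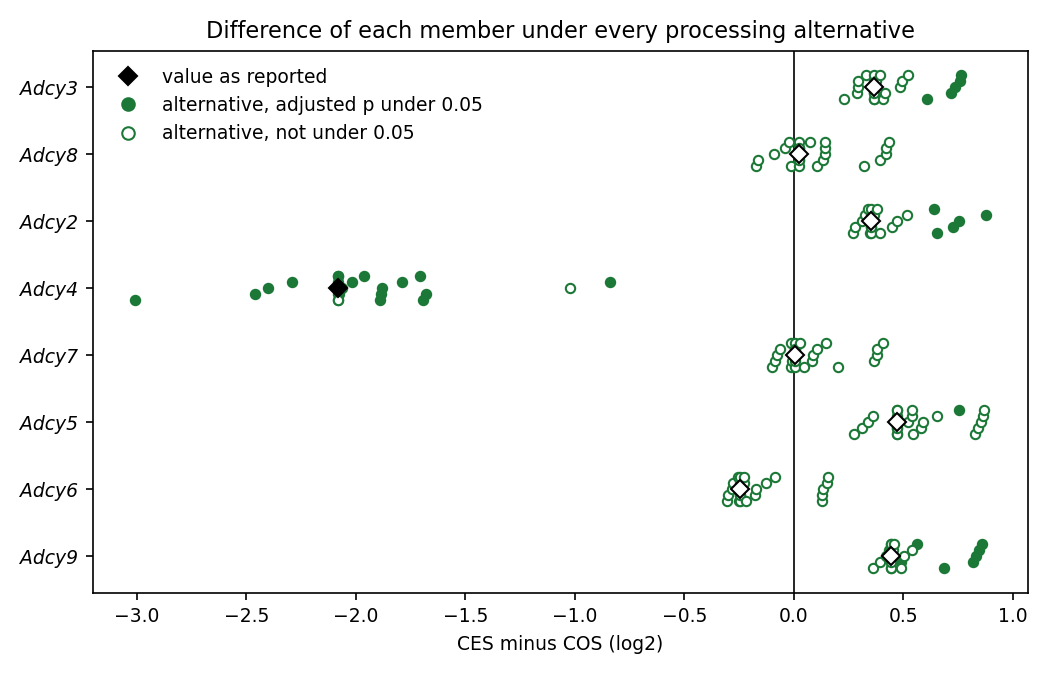
Difference in log2 level between CES and COS for each adenylyl cyclase as reported (diamonds) and under each processing alternative (circles), filled where the adjusted p was under 0.05. Adcy4 was negative under all alternatives, from -3.01 to -0.84, and Adcy2, Adcy3, Adcy5 and Adcy9 were positive under all of theirs, whereas Adcy6, Adcy7 and Adcy8 fell on both sides of 0.

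The difference of Adcy2, Adcy3, Adcy5 and Adcy9 was positive under all alternatives tried, and which of them passed the threshold differed between alternatives. Loess with Aquantile normalization called 4 members higher (Adcy2, Adcy3, Adcy5 and Adcy9), beside 15.5% of all genes, and Adcy4 lower, beside 10.4%. Quantile normalization, scaling over common spots (valid in every rat) and the deposited log2 table each called Adcy2, Adcy3 and Adcy9 higher, 3 members beside 14.3%, 15.7% and 15.6% of all genes. They called Adcy4 lower beside 10.4%, 8.05% and 9.2%. Adcy4 had an adjusted p under 0.05 under 21 of its 24 alternatives. The share of higher calls among all genes called was 17.0% as reported, 59.8% after loess with Aquantile normalization and 61.8% on the gene-centered scale.

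For Adcy4, the 3 genes with the most similar profile over the 8 rats, of 10444 compared, were Vamp5, Ifi47 and Dnajc22, as a description without a test. After each gene was centred on its own mean, they lay at a root mean square distance of 0.16, 0.18 and 0.20 from Adcy4, against a median of 1.04. Vamp5 encodes a vesicle-associated membrane protein, Ifi47 an interferon-inducible GTPase and Dnajc22 a DnaJ-domain protein. Like Adcy4, each was lowest in CES 1 and CES 4 and highest in COS 1, and among the CES rats each was nearest to the COS rats in CES 2.

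**Figure D4:**
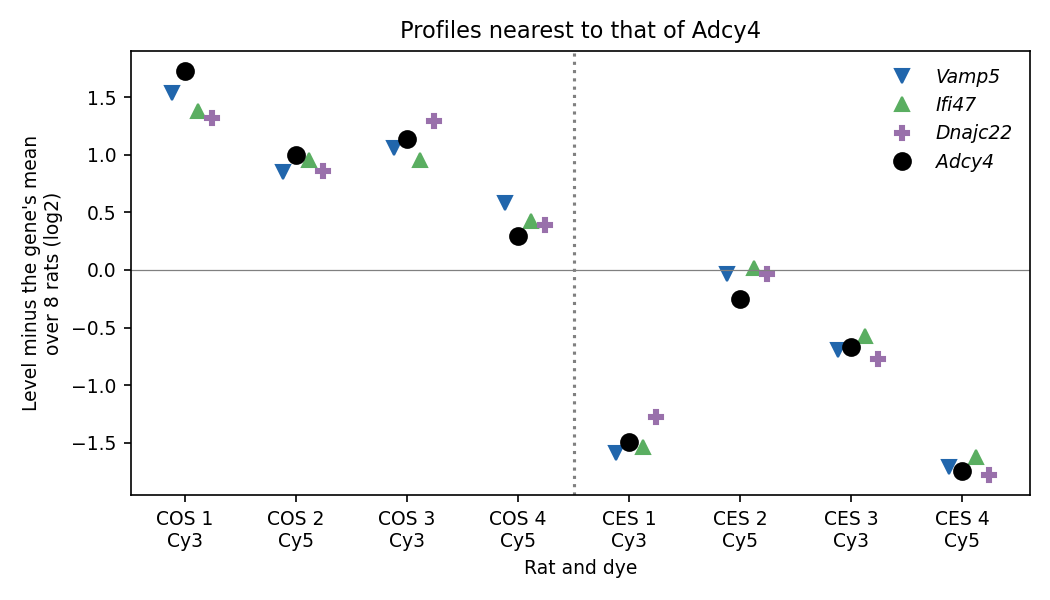
Level of Adcy4 and of the 3 genes with the nearest profile in each of the 8 rats, as log2 minus the gene's own mean over the rats. COS rats are left of the dotted line and CES rats right of it, with the dye under each rat. All 4 genes are above their mean in all COS rats, and CES 2 is the CES rat nearest to them.

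The genes around the cyclases were counted in 6 lists with 64 names, of which 54 were quantified. limma called 5 of the 54 higher in CES and 17 lower, and 9 higher and 6 lower on the gene-centered scale. The lower calls thus fell in number with the centring, as they did over all genes (28.3% against 9.27%), and the higher calls rose (5.79% against 15%).

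Of the 6 quantified Gα genes 3 were called lower and 0 higher, beside 28.3% and 5.79% of all genes. Their median difference was -0.38, beside -0.25 over all genes. Gnas, which encodes Gαs, had a mean of 6.04 ± 0.19 in COS and 5.53 ± 0.23 in CES (SD, 4 rats each) and differed by -0.51 (SE 0.17, adjusted p = 0.0454). Gnai3 and Gnai2, which encode inhibitory subunits, were lower by -0.86 (adjusted p = 0.00972) and -0.78 (adjusted p = 0.0115). For each of the 3 genes no CES rat reached a COS rat, as for 19.8% of all genes. On the gene-centered scale this held for Gnai3 but not for Gnas or Gnai2, beside 11.9% of all genes. Gnal, the olfactory Gα, differed by -0.25 (adjusted p = 0.292) and Gnai1 by 0.21 (adjusted p = 0.428). After gene-centering limma called none of these 6 genes, with -0.49 for Gnai3 (adjusted p = 0.051), -0.41 for Gnai2 (adjusted p = 0.0671) and -0.14 for Gnas (adjusted p = 0.40), and at the same scaling Gnal changed sign to 0.12.

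Of 11 regulators 1 was called higher and 4 lower, beside 5.79% and 28.3% of all genes. Adcyap1, which encodes PACAP, a neuropeptide whose receptor acts through Gαs, averaged 0.97 ± 0.27 in COS and -0.68 ± 0.28 in CES (SD, 4 rats each). Its difference of -1.64 (SE 0.21, adjusted p = 0.00341) kept its call on the gene-centered scale (-1.27, adjusted p = 0.0231). Rgs2, a GTPase-activating protein that also binds some adenylyl cyclases, was lower by -1.45 (adjusted p = 0.0091), and Ric8b, a chaperone and exchange factor of Gαs, by -0.99 (adjusted p = 0.00808), with Ric8b well above background in 3 COS rats and 1 CES rat. Both kept their call on the gene-centered scale, at -1.08 and -0.62. Cap2, a cyclase-associated protein that acts on actin, was higher by 0.56 (adjusted p = 0.042), and by 0.93 (adjusted p = 0.0226) on the gene-centered scale.

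Of 9 PKA genes 0 were called higher and 2 lower, beside 5.79% and 28.3% of all genes. Prkacb, a catalytic subunit, differed by -0.28 (adjusted p = 0.219). Prkaca, the other catalytic subunit listed, differed by -0.01 (adjusted p = 0.958), and both were positive on the gene-centered scale, at 0.09 and 0.36. Pkig, which encodes a PKA inhibitor, was lower by -0.85 (adjusted p = 0.00623), and -0.48 (adjusted p = 0.0596) on the gene-centered scale. Prkar2a, a regulatory subunit, was called lower (adjusted p = 0.00546), but it was well above background in 1 COS rat and no CES rat, so no fold is given.

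The phosphodiesterases, which break cAMP down, were called in both directions. Of 12 quantified genes 3 were called higher and 5 lower, beside 5.79% and 28.3% of all genes. Pde2a, which cyclic GMP stimulates, was higher by 0.83 (SE 0.22, adjusted p = 0.02). Pde4a, specific for cAMP, was higher by 0.68 (adjusted p = 0.0158), and Pde1a, which calcium and calmodulin activate, by 0.65 (adjusted p = 0.0183). All 3 kept their call after gene-centering, at 1.20, 1.05 and 1.02. Pde1c, of the same calcium-activated family as Pde1a, was lower by -1.19 (SE 0.20, adjusted p = 0.00458), and also on the gene-centered scale (-0.82, adjusted p = 0.021), with 3 COS rats and 2 CES rats well above background. Pde8a and Pde4b, both specific for cAMP, were lower by -0.92 (adjusted p = 0.00671) and -0.90 (adjusted p = 0.0138), and neither kept its call on the gene-centered scale (adjusted p = 0.0565 and 0.0771). Pde8a too was well above background in 3 COS rats and 2 CES rats only, so that the sizes given for Pde1c and Pde8a rest partly on dim signals.

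Among 10 A-kinase anchoring proteins, which hold PKA near its substrates, 1 was called higher and 2 lower, beside 5.79% and 28.3% of all genes. Akap12 (gravin) averaged 3.55 ± 0.18 in COS and 1.21 ± 0.74 in CES (SD, 4 rats each) and differed by -2.34 (SE 0.32, adjusted p = 0.00374), and -1.97 (adjusted p = 0.0181) on the gene-centered scale. Akap5, the anchoring protein of the postsynaptic density, was higher by 1.19 (SE 0.31, adjusted p = 0.0187), and by 1.56 (adjusted p = 0.0446) on the gene-centered scale. Akap13 was lower by -0.56 (adjusted p = 0.0282). It was not called on the gene-centered scale.

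**Figure D5:**
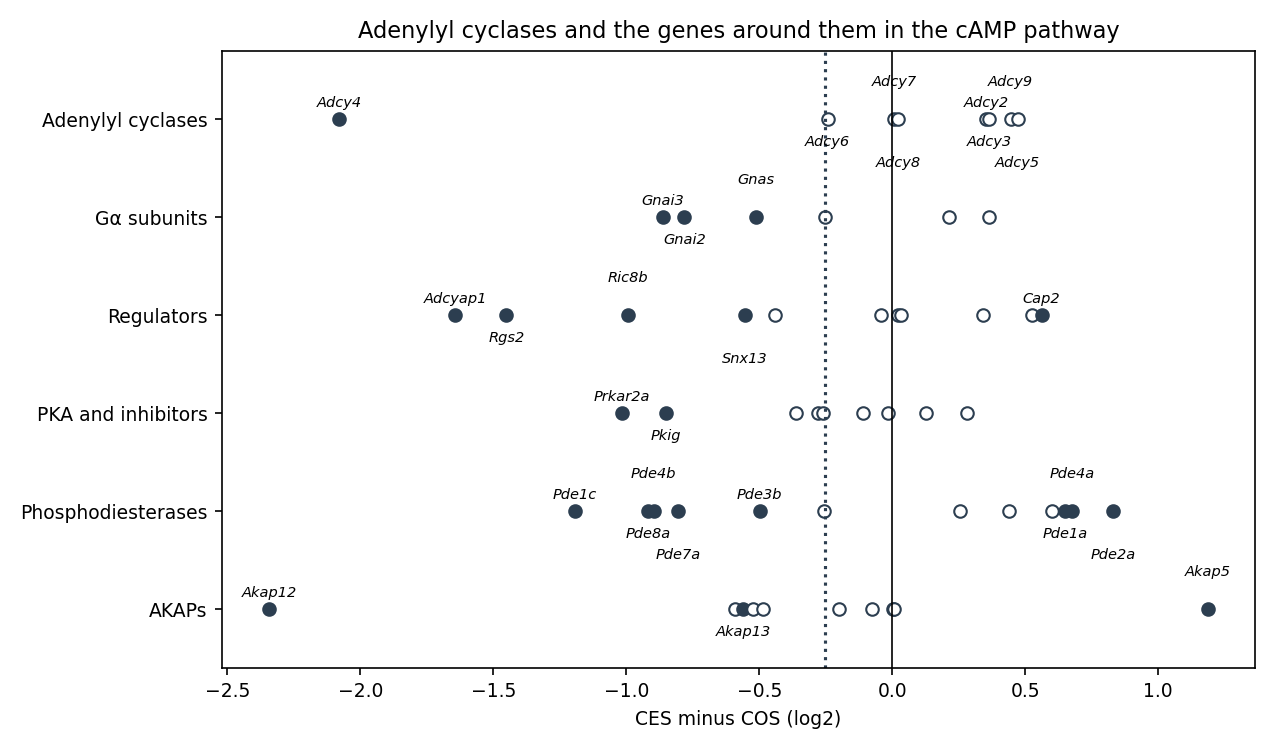
Difference in log2 level between CES and COS, on the valid-spot scale, for the 8 adenylyl cyclases and the quantified genes of 5 of the 6 cAMP pathway lists. Filled points have an adjusted p under 0.05, the dotted line is the median of all genes (-0.25), and names are given for the cyclases and the called genes. The called genes range from -2.34 (Akap12) to 1.19 (Akap5).

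Markers of several cell types also differed between the groups, and several of these calls were made on the valid-spot scale alone, on which 28.3% of all genes were called lower and 5.79% higher. Of the DG granule cell markers 3 of 4 quantified were called lower on that scale (C1ql2, Dsp and Tdo2, the last well above background in no rat) and 0 on the gene-centered scale, while Calb1 was called on neither and the defining marker Prox1 was not quantified. Of 4 quantified endothelial markers 2 were called lower (Flt1 and Tek) and 0 after gene-centering. Their summed linear level turned in direction with the scale, from 16.3 to 21.4 in COS and 12.0 to 17.1 in CES by valid spots to 8.12 to 10.704 in COS and 9.05 to 11.8 in CES after gene-centering, and Pecam1 was not quantified.

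Other markers were called on both scales. Among the 4 quantified CA pyramidal cell markers Wfs1 and Fibcd1 were called higher on both, with Fibcd1 well above background in no COS rat and 2 CES rats. Bok (0.20, adjusted p = 0.461 in limma by valid spots) and Coch (-0.12, adjusted p = 0.806) were called on neither. Of the 6 GABAergic interneuron markers Sst and Npy were called lower on both, whereas Pvalb was at 0.51 (adjusted p = 0.0723) by valid spots and called higher after gene-centering (0.88, adjusted p = 0.0287). Gad1, Gad2 and Slc32a1 were called on neither scale, at -0.57, -0.58 and -0.33 by valid spots and -0.20, -0.21 and 0.04 after gene-centering. The 5 astrocyte markers held Aldh1l1, called higher on both scales, Gja1, called higher by valid spots only (adjusted p = 0.0591 after gene-centering), and Gfap, which lay at -1.19 without a call (adjusted p = 0.0618). Aqp4 (0.04 by valid spots) and Slc1a3 (-0.07) were called on neither. Of the 6 microglial markers P2ry12 was called higher and Csf1r and Cd68 lower on both scales, and Itgam lower by valid spots only (adjusted p = 0.0701 after gene-centering). Aif1 (-0.32 by valid spots) and Cx3cr1 (-0.43) were called on neither. The summed microglial level was 33.8 to 51.1 in COS and 24.9 to 35.1 in CES by valid spots, and 18.3 to 22.8 and 15.6 to 20.1 after gene-centering. Of 4 thalamic markers, genes of a tissue next to the DG, Prkcd and Slc17a6 were called lower on both scales, with a summed level by valid spots of 18.1 to 32.9 in COS and 5.75 to 15.5 in CES. After gene-centering the ranges of the summed thalamic level overlapped, at 10.52 to 13.60 in COS and 3.96 to 10.66 in CES. No oligodendrocyte or choroid plexus marker was called on either scale, and the summed choroid plexus markers ran from 13.3 to 629.2 in COS and from 16.6 to 200.8 in CES. The part of these differences in the levels of Adcy4, the other cyclases and the pathway genes was not tested.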

How the data were processed

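Total RNA of the DG of 8 rats was labeled with Cy3 (replicates 1 and 3 of each group) or Cy5 (replicates 2 and 4), and 2 rats of the same group were hybridized to each of 4 two-color arrays on 1 slide. The authors deposited the scanner output of each array (Agilent Feature Extraction 10.7.3.1, per the submitters' processing notes), with the raw intensity of every spot and its surrounding background and a processed intensity corrected for background and dye by the scanner software. A second deposited file gives log2 values. Each of its columns equaled log2(median signal - background median) of the channel minus a constant (SD of the offset 0.0000), with a column median of 0.0000, so its scale and centring are known and its direction is that of the level. No spot was saturated. The renormalization across conditions that the study's methods describe is in neither file type.

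As in the methods, a spot was valid if its foreground was at least 2 times its background, net signals were scaled to the median valid spot of their channel, and the mean over a gene's spots valid in all 8 rats was taken to log2. A RefSeq name was found for 17503 of 41012 probes, including 8 of the 10 probes of the members. Members kept the gene name listed for the array, and other probes took the RefSeq name or, without one, the listed name. limma 3.58.1 (R 4.3.3, statmod 1.5.0, data.table version 1.17.8) compared CES with COS over all 21372 quantified genes with dye fixed and the array, which holds 1 group only, as a random block (duplicateCorrelation), in a two-sided test at 0.05 after Benjamini-Hochberg adjustment. The fit was also run on simulated data with known differences and no array effect. Those data cannot show how arrays that hold 1 group only affect the p-values. The median SE of a difference was 0.20. Depth has no counterpart in array data, and the number of 8 rats on 4 arrays limits the precision. The consensus correlation within arrays was -0.0065 in this fit, so the random block had almost no effect and the rats entered nearly as independent samples. Array and slide position cannot be told apart from the group. Spots that the scanner software marked as outliers were kept.

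The correlation of deviations between rats of the same number in both groups was 0.21 to 0.34, but the same numbers share a dye, and after removal of the dye it was -0.28 to 0.08, and the dye is in the fit. P-values measure the spread between these rats, each of which is 1 sample.

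The members and the lists of genes were chosen with earlier results of these data known. Named were all 8 members, the called genes of the pathway lists (at most the 3 largest per list and direction), the Gs, Gi and PKA catalytic genes whatever their call, and the 3 genes nearest in profile to a called member. Alternatives were normexp (offset 50), loess with Aquantile, the processed intensity, quantile normalization, scaling over spots valid in all rats, no filter, a foreground of at least 3 times background, well above background in all rats, leaving out the array block, the dye term or the spots marked as outliers, a block by replicate number, the brightest probe per gene, the deposited log2 table, the methods' t-test and each rat left out. Centring on the median of all genes and leaving out the array of COS 3 and COS 4 were added after the data were seen. Python 3.11.15, numpy 2.4.6, pandas 2.3.3, scipy 1.17.1 and matplotlib 3.10.9 were also used. The list of other cAMP effectors entered the totals over the pathway lists, and its genes are not reported here.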

Additional observations from a re-analysis of the deposited data

Results flagged for a closer look

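Among 62 groups of 4 rats tested (8 members and 23 pathway genes in 2 groups), 3 held a rat far from the other 3, about the number that chance gives, 1 in 20 groups. None was an adenylyl cyclase. Adcyap1 was at -0.26 in CES 3, with the other CES rats between -0.82 and -0.81. Cap2 was at 4.48 in CES 2, with the others between 5.00 and 5.04. Pde2a was at 1.26 in COS 4, with the others between 2.00 and 2.12.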

How the results depend on the processing

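Most alternatives left the Adcy4 difference negative and called, and the number of members called higher was 3 or 4 under 5 other scalings or tables and 0 or 1 otherwise. Genes called higher and lower in CES numbered 1238 and 6054 as reported, 126 and 461 with normexp, 3311 and 2223 with loess and Aquantile, 3059 and 2226 with quantile normalization, 3352 and 1720 when scaled over spots valid in all rats, 421 and 2797 without a filter, 1272 and 2835 when a valid spot had to reach 3 times background, 3285 and 1936 in the deposited log2 table, 3211 and 1981 after gene-centering, 118 and 1090 without the array of COS 3 and COS 4, and 0 and 0 in the methods' t-test, where 6114 genes had an unadjusted p under 0.05. Leaving out 1 rat gave 262 to 1860 higher and 932 to 7029 lower, with 511 and 3643 without COS 1, 3994 lower without COS 2, 262 and 932 without COS 3, 534 higher without COS 4, 534 and 2493 without CES 1 and 1860 higher without CES 2.

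Of the 8 members, 4 were called higher with loess and Aquantile and 3 with quantile normalization, scaling over spots valid in all rats, the deposited table and centring. Only Adcy9 (1) was called higher at 3 times background (0.56), with well above background in all rats (0.45), without CES 3 and without CES 4, over 0 to 1 on leaving out 1 rat. Members called lower numbered 0 with normexp (Adcy4 -1.02), with well above background in all rats (Adcy4 has no value there), in the methods' t-test (-2.08) and without COS 3, and 0 to 1 on leaving out 1 rat. In the order loess, quantile, common spots, deposited table and centring, Adcy2 was at 0.64, 0.65, 0.75, 0.88 and 0.73, Adcy3 at 0.61, 0.76, 0.76, 0.72 and 0.74, Adcy9 at 0.68, 0.83, 0.85, 0.86 and 0.82, and Adcy6, turned in sign, at 0.13, 0.13, 0.16, 0.15 and 0.13. In the same order Gnal was at 0.0585, 0.10, 0.15, 0.13 and 0.12, Prkaca at 0.091, 0.28, 0.38, 0.37 and 0.36, and Prkacb at 0.031, 0.0509, 0.12, 0.12 and 0.0911. Adcy5 was called at 0.75 with loess. Prkaca also turned with the processed signal (0.23), with 3 times background (0.22) and on leaving out 1 rat (-0.11 to 0.12). Adcy7 was at -0.00981 with normexp, at -0.0128 with well above background in all rats and with the brightest probe, at -0.0758 without the array of COS 3 and COS 4, and at -0.0985 to 0.0883 on leaving out 1 rat. Adcy8 was at -0.16 with the processed signal and at -0.17 to 0.14 on leaving out 1 rat. The partial-record Adcy7 probe was at 0.0397 with normexp, 0.25 with loess, 0.38 with quantile normalization, 0.39 when scaled over common spots and -0.15 to 0.0804 on leaving out 1 rat. The ranges on leaving out 1 rat were 0.27 to 0.45 for Adcy2, 0.23 to 0.52 for Adcy3, -2.46 to -1.79 for Adcy4 and 0.36 to 0.54 for Adcy9.

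Of single probes of the members 0 were called higher as reported, 4 with loess, 3 with quantile normalization and scaling over common spots, and 0 to 1 on leaving out 1 rat, and 1 lower as reported and 0 with normexp. Pathway genes called higher and lower, 5 and 17 as reported, numbered 0 and 1 with normexp, 14 and 7 with loess, 10 and 8 with quantile normalization, 11 and 4 when scaled over common spots, 0 and 7 without a filter, 7 lower with 3 times background, 11 and 6 in the deposited table, 9 and 6 after gene-centering, 0 and 4 without the array of COS 3 and COS 4, 0 and 0 in the methods' t-test, and 0 to 9 and 5 to 20 on leaving out 1 rat.

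With the replicate number as a block in place of the dye, limma called 1077 genes higher and 6147 lower, Adcy4 was at -2.08 (adjusted p = 0.00755), and no member changed its call. Signal over background limits Adcy4 in CES 1 and CES 3 and the second Adcy6 probe, which without the filter differed by -0.65 (adjusted p = 0.24). The cause of the changes listed was not tested.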
